A study of Ovis aries with 6 samples.

Results

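The genes described are 10 components of Notch signalling, which were chosen by name: the receptors NOTCH1, NOTCH2 and NOTCH3, the ligands DLL1, DLL4, JAG1 and JAG2, and the target genes HES1, HEY1 and HEYL. Of the 23144 genes in the count table, 8 carried one of these 10 symbols as their gene name, since DLL1 and JAG2 did not appear under their own symbols. DLL1 was read from LOC101117853, whose number is the gene ID of DLL1 in the RefSeq annotation of sheep (ARS-UI_Ramb_v3.0). JAG2 was read from LOC101108260, which the authors' table describes as similar to jagged-2 and matches to JAG2 by name only. Both are given below, but counts of members refer to the 8 genes with their own symbols. All 8, and both LOC genes, passed the filter on low counts. Another 2 LOC genes that the table matches to NOTCH1 had 0 reads.

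Notch is a receptor on the cell surface that is switched on by a ligand of the Delta or Jagged family on a neighbouring cell. Ligand binding lets proteases cut the receptor, its intracellular part enters the nucleus and binds the DNA-binding protein RBPJ, and genes such as HES1, HEY1 and HEYL are transcribed. Their products are repressors of the basic helix-loop-helix class. In skeletal muscle the pathway is known for keeping satellite cells, the stem cells of the fibre, quiescent and undifferentiated, and in vessels for the choice of endothelial cell fate and for the coupling of endothelium to mural cells.

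The libraries came from the longissimus dorsi muscle of 3 ewes of the Qianhua Mutton Merino (QHMM) and 3 of the Small Tail Han (STH), all aged 1 year, with 1 library per animal. QHMM is a recent breed for meat and wool, derived from South African Mutton Merino sires and Chinese Northeast Fine-wool dams, and STH is a traditional local breed. All animals were raised in one environment with free access to food and water, although the study's methods describe a fast before slaughter. The comparison is STH vs. QHMM. The labels and the study's methods describe no treatment, and no genotype apart from the breed.

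The libraries held 10982191 to 14334544 reads on genes. Values below are read counts normalized by edgeR's TMM method (trimmed mean of M-values) and scaled to the median library. The markers of skeletal muscle were abundant, led by ACTA1 (skeletal alpha-actin) with 547523 to 1562584 normalized counts, although TNNT3 was listed at 0 reads in all 6 libraries. QHMM replicate 2 and STH replicate 3 deviated from their breeds in a weakly similar way across the 12506 genes tested (r = 0.271). They had the lowest TMM factors, 0.852 and 0.853. With 3 animals per breed, the smallest p an exact permutation of 1 gene allows is 0.10. Since the tissue is a mixture of cells, fewer cells of one type and less RNA per cell cannot be told apart.

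Per gene length, HES1 was the most abundant of the genes and the LOC gene of JAG2 the least. Levels of different genes were compared by the deposited RPKM (reads per kilobase of gene per 1e+06 reads on genes). The order depends on the gene lengths that the RPKM implies, which were not checked. They were 920 bases for HES1, 1074 for the LOC gene of JAG2 and 2155 to 7766 for the others. HES1 averaged 27.97 RPKM over the 6 libraries and DLL4 12.3 RPKM. The order between them was kept in 6 of 6 libraries, although HES1 itself ranged from 8.60 to 53.5 RPKM.

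JAG1, NOTCH3 and HEYL formed a middle group at 5.96, 5.91 and 5.84 RPKM. Their order did not hold against the spread, since JAG1 exceeded NOTCH3 in 3 of 6 libraries and NOTCH3 exceeded HEYL in 4 of 6. DLL4 lay above JAG1 in 5 of 6 libraries, the exception being QHMM replicate 3. Below them came NOTCH2 at 4.09, DLL1 at 3.64 and NOTCH1 at 3.44 RPKM, and NOTCH2 exceeded DLL1 in only 2 of 6 libraries. HEYL exceeded NOTCH2, and NOTCH1 exceeded HEY1, in all 6 libraries. HEY1 averaged 1.77 RPKM and JAG2 1.38 RPKM, with HEY1 the higher in 4 of 6.

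**Figure D1:**
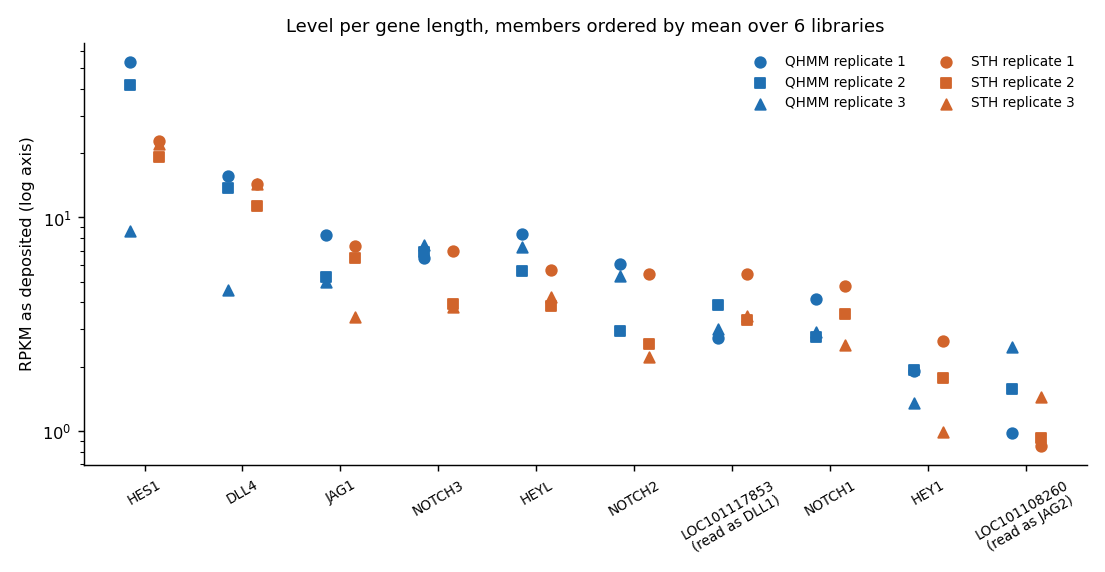
RPKM as deposited, on a log axis, of each gene in the 6 libraries, ordered from left to right by the mean over the libraries; blue is QHMM, orange is STH and the symbol gives the replicate number. HES1 and DLL4 lead, QHMM replicate 3 lies lowest for both (8.60 and 4.599 RPKM), and JAG1, NOTCH3 and HEYL overlap.

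Of the receptors, NOTCH3 was lower in every STH library than in any QHMM library, NOTCH2 was lower on average with overlapping breeds, and NOTCH1 did not separate the breeds. None of the 3 passed the test, for which a gene was called at an FDR below 0.05 over the 12506 genes and an absolute log2 fold change above 0.585. NOTCH3, the receptor known from pericytes and vascular smooth muscle, stood at 503, 638 and 575 normalized counts in the QHMM animals (replicates 1, 2 and 3, in this order throughout) and at 459, 281 and 355 in the STH animals. The lowest QHMM library and the highest STH library differed by less than the STH libraries did among themselves. Its log2 fold change was -0.64 (SE 0.23, 95% interval -1.16 to -0.13), and the FDR was 0.165 by edgeR's quasi-likelihood test. With 1 library left out the log2 fold change of NOTCH3 lay between -0.86 and -0.51. On the deposited RPKM scale, which carries no TMM factor, the breeds overlapped for this gene, as STH replicate 1 had 6.94 RPKM and QHMM replicate 1 had 6.43 RPKM.

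NOTCH2 is expressed broadly and is one of the receptors of satellite cells. Its normalized counts were 610, 350 and 524 in the QHMM animals and 459, 235 and 263 in the STH animals. QHMM replicate 2 fell below STH replicate 1, so that the breeds overlapped. The log2 fold change of NOTCH2 was -0.63 (SE 0.30, 95% interval -1.30 to 0.04) with an edgeR FDR of 0.287, and without STH replicate 1 it was -1.01 with an FDR of 0.0850.

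NOTCH1, the receptor best known from endothelium and satellite cells, varied least over the libraries. It had 244, 194 and 168 normalized counts in the QHMM libraries and 238, 191 and 176 in the STH libraries. The means, 202 ± 38.7 in QHMM and 202 ± 32.3 in STH (SD, n = 3), were almost equal, and the 95% interval of its log2 fold change ran from -0.54 to 0.54. A change of up to about this size in either direction was therefore not excluded at 3 animals per breed.

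**Figure D2:**
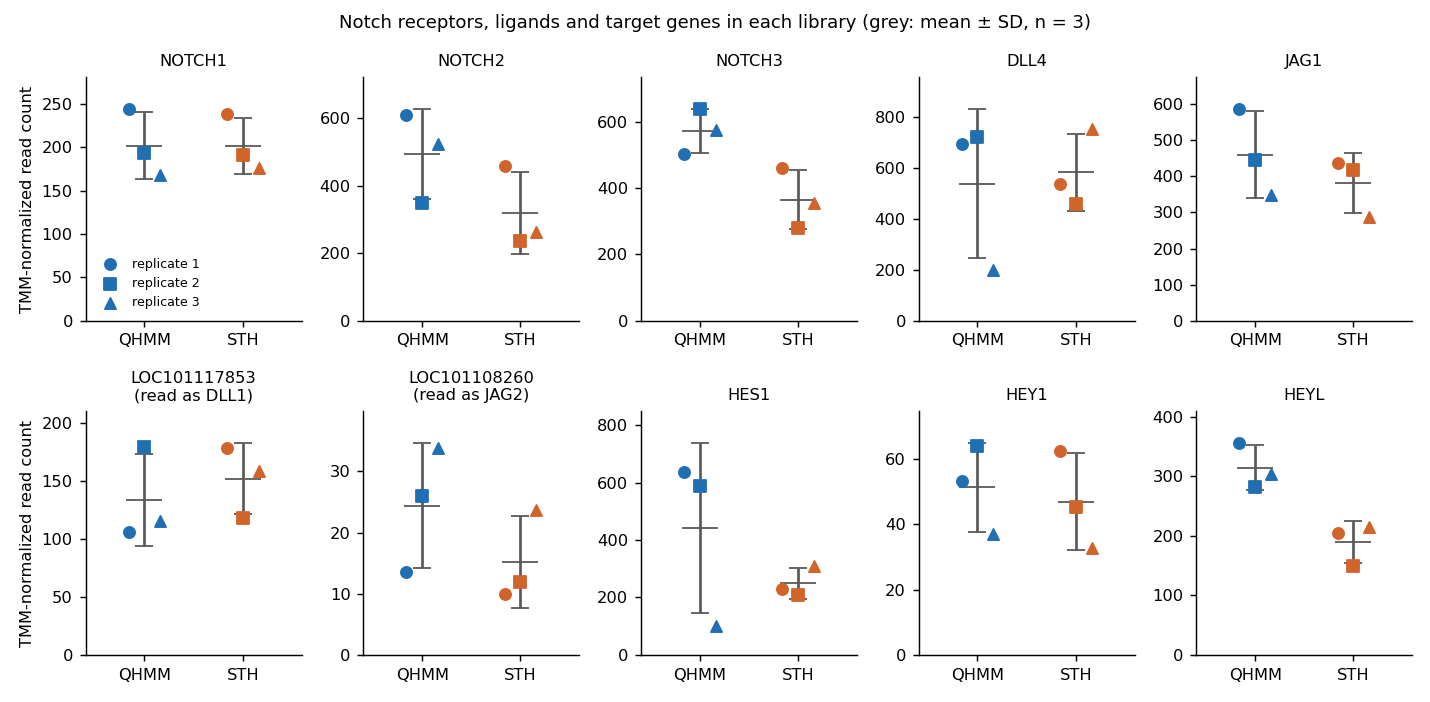
TMM-normalized read counts of each gene, with QHMM in blue, STH in orange, the symbol giving the replicate number, and grey bars the mean ± SD of 3 libraries. NOTCH3 and HEYL are the genes whose breeds do not overlap, and QHMM replicate 3 stands far below the other QHMM libraries for HES1 and DLL4.

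Among the ligands, none differed between the breeds beyond the spread of the libraries, and DLL4 varied most within a breed. DLL4, the Delta ligand of arterial and sprouting endothelium, reached 694, 724 and 201 normalized counts in the QHMM libraries, and 539, 459 and 754 in the STH libraries. The low value belonged to QHMM replicate 3, and the other 5 libraries lay between 459 and 754. Its log2 fold change was 0.11 (SE 0.41, FDR = 0.914 by edgeR), and it changed sign, to -0.28, without QHMM replicate 3 and, to -0.11, without STH replicate 3.

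JAG1, a Jagged ligand of endothelium and smooth muscle, had 586, 444 and 347 normalized counts in QHMM and 438, 418 and 286 in STH. The breeds overlapped widely, and the log2 fold change was -0.27 (SE 0.26, 95% interval -0.84 to 0.30), ranging from -0.43 without QHMM replicate 3 to -0.08 without QHMM replicate 1. The LOC gene of DLL1, the Delta ligand best known from muscle progenitors, gave 106, 179 and 116 normalized counts for QHMM and 179, 119 and 159 for STH, and its log2 fold change was 0.19 (SE 0.28), which was 0.03 without QHMM replicate 1 and 0.46 without QHMM replicate 2. Neither gene held its libraries apart by breed.

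The LOC gene of JAG2 rested on few reads, 15, 22 and 33 in QHMM and 12, 11 and 21 in STH. An exact Poisson interval for the lowest of these counts, 11 reads, ran from 5.49 to 19.7, which covers counting error only. The log2 fold change was -0.69 (SE 0.50) with an interval from -1.81 to 0.42, so that neither equal levels nor a level in STH more than 2-fold lower was excluded for JAG2 at this depth. The value was -0.37 without QHMM replicate 3 and -1.15 without STH replicate 3.

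Of the target genes, HEYL was lower in all 3 STH libraries, HES1 was lower in STH than in QHMM replicates 1 and 2 but not than in QHMM replicate 3, and HEY1 overlapped. HEYL, a repressor known from vascular smooth muscle and satellite cells, was measured at 356, 282 and 304 normalized counts in the QHMM animals and at 205, 150 and 215 in the STH animals. That is 314 ± 37.7 against 190 ± 35.0 (mean ± SD, n = 3), and the gap between the nearest libraries of the breeds was about as large as the spread within either. The log2 fold change of HEYL was -0.73 (SE 0.23, 95% interval -1.24 to -0.21) with an edgeR FDR of 0.117, the lowest among the members, which was not past the threshold. It lay between -0.82 and -0.60 with 1 library left out, with FDRs of 0.132 to 0.312. On the RPKM scale HEYL overlapped slightly, with 5.59 RPKM in QHMM replicate 2 and 5.70 RPKM in STH replicate 1.

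HES1, the general Notch effector in many tissues and also a target of other signals, was the most variable member. Normalized counts of HES1 were 636, 588 and 100.4 in the QHMM animals and 229, 208 and 311 in the STH animals. The STH libraries lay close together, within a ratio of 1.49 of highest to lowest, whereas the QHMM libraries spread over a ratio of 6.34 and enclosed them. The log2 fold change of HES1 was -0.83 (SE 0.51, 95% interval -1.96 to 0.31) with an edgeR FDR of 0.422. Without QHMM replicate 3 it was -1.29 with an FDR of 0.0494, a call in a fit that called 1.17% of its genes, and without QHMM replicate 1 it was -0.48 with an FDR of 0.731. The result for HES1 thus rested on which QHMM animals were included. The 98 HES1 reads of QHMM replicate 3 have an exact Poisson interval of 79.6 to 119, so counting error does not span its distance from the other libraries.

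HEY1, known as a target of Notch in endothelium, was covered by 29 to 75 reads per library. It had 53.1, 63.8 and 36.9 normalized counts in QHMM and 62.4, 45.3 and 32.8 in STH. The breeds covered nearly the same range, and the log2 fold change of HEY1 was -0.12 (SE 0.35, 95% interval -0.89 to 0.65).

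Taking the 8 genes together, edgeR called 0 of 8 in STH vs. QHMM, where it called 3.45% of all genes tested, 1.62% higher and 1.83% lower in STH. DESeq2 called 0 of the 8 and 7.80% of all genes, and limma called 0 and 3.11% on log2(RPKM + 1) and 0 and 2.94% on log2(RPKM + 0.1). edgeR also called 0 of the 8 with upper-quartile normalization (3.25% of all genes called), with no filter on low counts (4.56%), with at least 10 counts in every library (3.95%), with the replicate number as a block (3.65%) and with robust dispersions (3.49%). Leaving out QHMM replicate 1 or 2, or STH replicate 1, 2 or 3, it called 0 members and 1.03%, 1.61%, 4.21%, 1.42% and 2.56% of all genes. Before adjustment, edgeR gave a p below 0.05 for 2 of 8, NOTCH3 and HEYL, against 19.2% of all genes tested and 9.72% in the lower direction. The breeds did not overlap for the same 2 genes, both lower in STH, against 24.7% of all genes tested with 11.7% lower and 13.0% higher in STH. These shares rest on 8 genes. Of the 8 log2 fold changes, 7 were below 0, where 48.2% of all genes tested were, and their median was -0.45 against 0.02 over all genes tested. NOTCH1 is one of the 7 at -0.00057, and it lay above 0 in other fits.

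**Figure D3:**
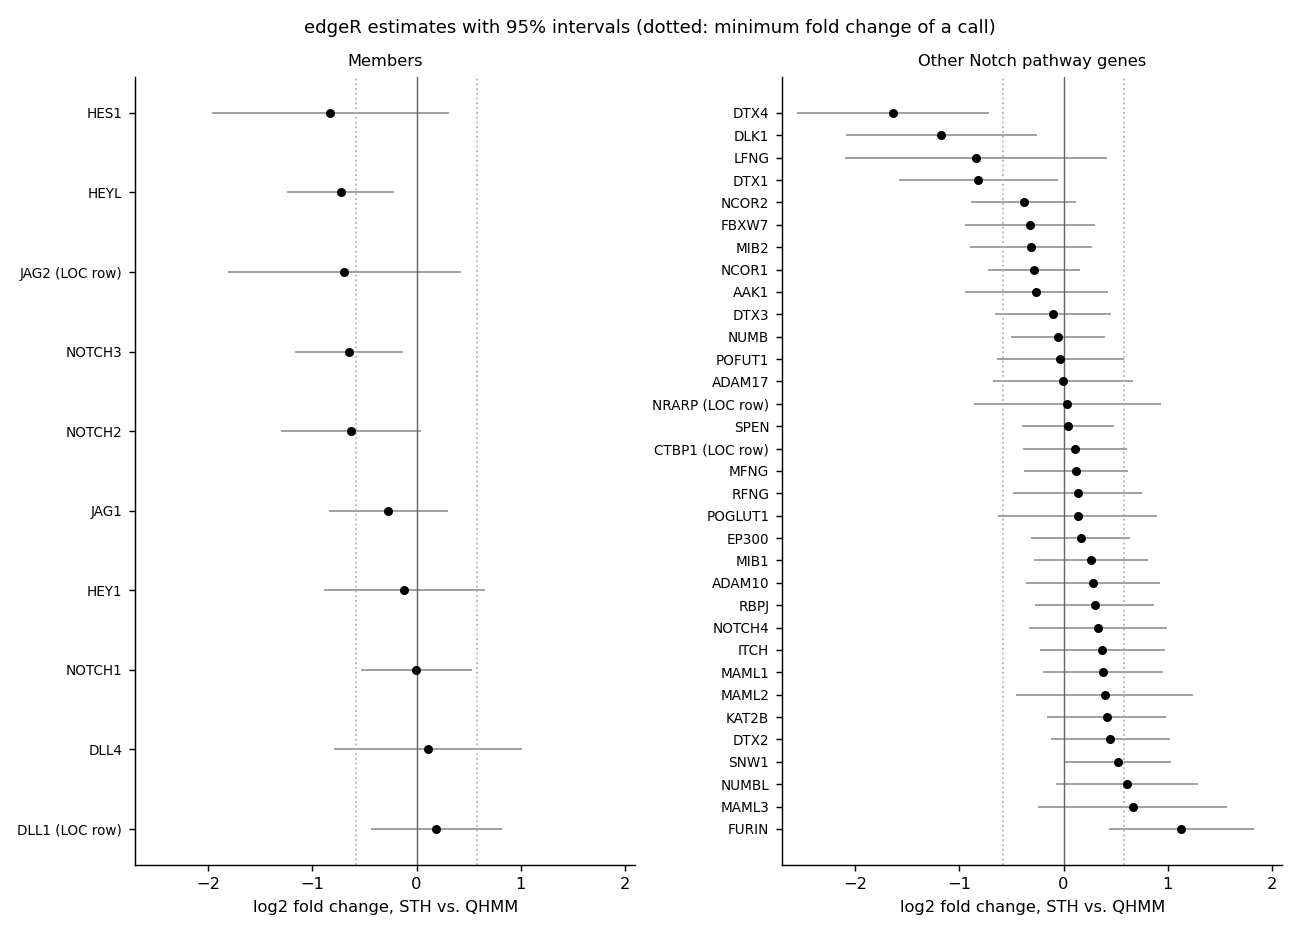
edgeR log2 fold changes in STH vs. QHMM (points) with 95% intervals (lines) for the 10 genes on the left and most of the other Notch pathway genes tested on the right; dotted lines mark the minimum fold change of a call, 0.585 to either side of 0. Among the 10 genes only the intervals of HEYL and NOTCH3 leave out 0, and none of the points shown passed the FDR threshold.

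Leaving out single libraries moved the genes to different extents. HEYL, NOTCH3, NOTCH2, HES1, JAG1 and JAG2 had a value below 0 in all 6 such fits, and DLL1 had one above 0. DLL4, NOTCH1 and HEY1 changed sign in at least 1 of the 6. HES1 covered the widest range of the genes with their own symbols, from -1.29 to -0.48. For HEYL and NOTCH3 the breeds do not overlap, so that an equal sign is no measure of stability.

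**Figure D4:**
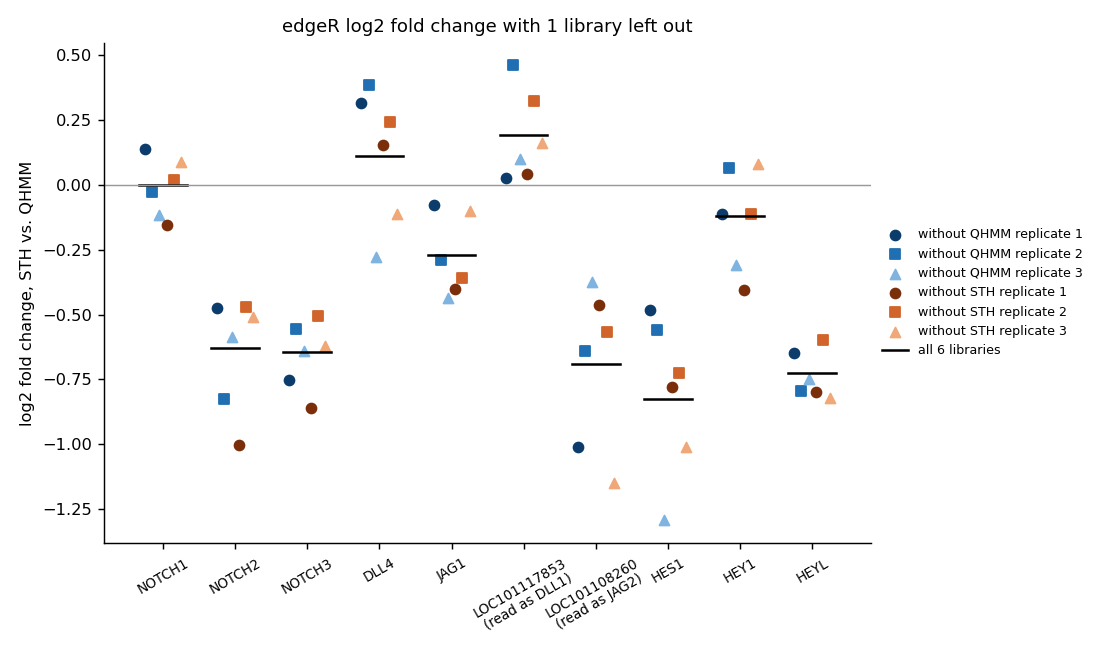
edgeR log2 fold change in STH vs. QHMM for each gene after leaving out 1 library (coloured points) and with all 6 (black bars). HES1 reaches its lowest value, -1.29, without QHMM replicate 3, and DLL4 drops to -0.28 without the same library.

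QHMM replicate 3 and STH replicate 2 each held the lowest value of 3 members. In STH replicate 2 they were NOTCH2, NOTCH3 and HEYL. QHMM replicate 3 had the highest value of the LOC gene of JAG2 and the lowest of NOTCH1, DLL4 and HES1. The receptor NOTCH4, which is largely restricted to endothelium, was also lowest there, with 137 normalized counts against 209 to 321 in the other libraries. So was the LOC gene of NRARP, a feedback inhibitor of Notch, with 16.4 against 26.9 to 40.1, and by a small margin NUMB. Other genes of the pathway, described below, were lowest elsewhere. ADAM10, RBPJ and FBXW7 were lowest in QHMM replicate 2, MAML1 in QHMM replicate 1, and DLK1 and LFNG in STH replicate 2. Low values in QHMM replicate 3 were thus not shared across the pathway. Summed markers of endothelial and mural cells were lowest in QHMM replicate 3, and so was the satellite sum, at 546.8 normalized counts. Of 5 tested satellite markers only 1, SDC4, was lowest there. The fibroblast sum was highest in this library, at 51059.8. The endothelial sum was 10594 normalized counts in QHMM replicate 3 and 11103.5 to 13336 in the other libraries, and 4 of 11 tested endothelial markers were lowest there, FLT1, TIE1, ESAM and EGFL7, which were named after their values were seen. EGFL7 had 78.8 normalized counts in QHMM replicate 3 and 116 to 185 elsewhere, while PECAM1 had 2711 there and 2349 to 2958 elsewhere. The mural sum was 5090.2 in QHMM replicate 3 and 5999.9 to 10277 in the other libraries, with 4 of 10 markers lowest there. The part of these cells in the low HES1 and DLL4 values was not tested.

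For the rest of the pathway, a list of 47 genes was written by role, of which 44 had a row in the table and 39 passed the filter on low counts. edgeR called 0 of the 39, where it called 3.45% of all genes tested, and limma on RPKM called 0. DESeq2 called 3, or 7.69%, against 7.80% of all genes tested. Before adjustment, 5 of the 39 had an edgeR p below 0.05, 2 higher and 3 lower in STH, which is 12.8% against 19.2% of all genes tested. The median log2 fold change was 0.12.

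Of the genes that carry the signal from the membrane to DNA, none was called. ADAM10, the protease that makes the first cut after ligand binding, had a log2 fold change of 0.29 (SE 0.29). RBPJ had 142 ± 29.9 normalized counts in QHMM and 174 ± 31.8 in STH (mean ± SD, n = 3), which is 0.30 on the log2 scale (SE 0.26). Its coactivator MAML1 had 0.38 (SE 0.26), and SNW1, another cofactor, named after its value was seen, had 0.52 (SE 0.23, FDR = 0.245 by edgeR). The upper bounds of the 95% intervals of ADAM10, RBPJ and MAML1 were 0.93, 0.87 and 0.95, so that levels nearly 2-fold higher in STH were not excluded.

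Among regulators of the receptor, NUMB, an endocytic adaptor that antagonizes Notch, had 292 ± 30.4 normalized counts in QHMM and 282 ± 10.2 in STH, a log2 fold change of -0.05 with a 95% interval of -0.50 to 0.40. FBXW7, which targets the intracellular part of Notch for degradation, had -0.32 (SE 0.28). LFNG, a glycosyltransferase that tunes which ligand the receptor answers to, was covered by 6 to 39 reads per library and had a log2 fold change of -0.84 (SE 0.57, 95% interval -2.10 to 0.42). NOTCH4 gave a log2 fold change of 0.33 (SE 0.30) and NRARP of 0.04 (SE 0.41).

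DLK1, a membrane protein related to the Delta ligands that lacks their receptor-activating domain, had the largest difference in mean level among the pathway genes of the naming rule. It had 1325, 731 and 703 normalized counts in QHMM and 685, 199 and 337 in STH. The breeds did not overlap, but QHMM replicate 3 and STH replicate 1 differed by little. The log2 fold change of DLK1 was -1.17 (SE 0.41) with an edgeR FDR of 0.153, and DESeq2 called it.

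DTX4 and FURIN were chosen after their values were seen. DTX4, a Deltex-family ubiquitin ligase, had 45.0, 35.4 and 37.9 normalized counts in QHMM and 16.6, 14.01 and 6.78 in the STH animals. Its log2 fold change was -1.63 (SE 0.42, FDR = 0.0605 by edgeR). DTX4 rested on few reads, 50, 30 and 37 in QHMM and 20, 13 and 6 in STH. It was left out of the fit that required at least 10 counts in every library. FURIN, the convertase that cleaves the Notch precursor among many other proteins, reached 237, 286 and 237 normalized counts in the QHMM animals and 307, 791 and 566 in the STH animals, a log2 fold change of 1.13 (SE 0.31, FDR = 0.0782 by edgeR). In both, every STH library lay on one side of every QHMM library, as in 24.7% of all genes tested.

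Of the pathway genes that failed the filter, DLL3 had 0 reads in all 6 libraries, where 3 counts would correspond to 0.209 to 0.273 CPM. HEY2, the relative of HEY1 known from heart and artery, had 2 to 7 reads per library. HES5, a target of Notch in neural tissue, had 1, 4 and 3 reads in QHMM and 0 in STH, and no fold was derived from either gene.

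Markers of the cells that use the pathway were counted in the same fit. Of 11 tested endothelial markers, 0 were called, where 3.45% of all genes tested were. VWF, ERG and EMCN, 3 of the 11, were higher in every STH library than in any QHMM library, as were 13.0% of all genes tested. VWF, the most abundant of them, had 3258 ± 166 normalized counts in QHMM and 4299.6 ± 369.8 in STH (mean ± SD, n = 3). CLDN5, from its LOC gene, was listed at 0 reads.

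Mural cells are the pericytes and smooth muscle cells in which NOTCH3 and HEYL are known to be expressed. Of 10 mural markers 0 were called, where 3.45% of all genes tested were. A log2 fold change above 0 was found for 7 and below 0 for 3, where 48.2% of all genes tested lay below 0. The median was 0.14, against 0.02 over all genes tested. Their summed level was 5090.2 to 10277 normalized counts in QHMM and 6045.5 to 9227 in STH, so that the breeds overlapped, and ACTA2, the most abundant, had a log2 fold change of 0.20 (SE 0.38). MCAM, chosen after its values were seen, was the only mural marker lower in every STH library, as were 11.7% of all genes tested. Its log2 fold change was -0.84 (SE 0.24, FDR = 0.0823 by edgeR). The part of mural cells in the NOTCH3 and HEYL values was not tested.

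Of the satellite cell markers, PAX7 had 4 to 38 reads per library, with a log2 fold change of -1.44 (SE 0.70). CDH15 (M-cadherin), which is also expressed by fusing myoblasts and fibres, was called, with 124 ± 10.9 normalized counts in QHMM and 271 ± 71.3 in STH, a log2 fold change of 1.12 (SE 0.26, FDR = 0.0448 by edgeR). It was 1 of 5 satellite markers tested, where 3.45% of all genes tested were called. CHRDL2 and MYF5, also of the 5, were chosen after their values were seen. CHRDL2 was lower in every STH library, as were 11.7% of all genes tested, with a log2 fold change of -1.79 (SE 0.66). MYF5 had -0.008 (SE 0.54). SDC4, the most abundant of that list, had 202 normalized counts in QHMM replicate 3 and 838 to 1886 in the other libraries, so that this library was low here as for HES1 and DLL4.

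Of the 7 fibroblast markers 0 were called, where 3.45% of all genes tested were, and 6 had a log2 fold change below 0, where 48.2% of all genes did. COL1A1, COL1A2 and COL3A1 were lower in all STH libraries, as were 11.7% of all genes tested, and DPT had a log2 fold change of 0.68 (SE 0.28). COL3A1, the most abundant, had 16941 ± 4692 normalized counts in QHMM and 7282 ± 3307 in STH. The summed level of the list was 30257.5 to 51059.8 in QHMM and 11183.7 to 23950.5 in STH, and its part in the NOTCH3 and HEYL values was not tested. Of 6 leukocyte markers 0 were called, and CSF1R, the most abundant, had a log2 fold change of -0.55 (SE 0.28). Of the blood markers, ALAS2 had 0 to 9 reads per library.

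The genes whose profiles over the 6 libraries came closest were listed for the members that varied most, HES1, DLL4 and JAG2, by the root mean square (RMS) difference of centred log2 CPM among 11285 genes. For DLL4 the closest was ID1, a helix-loop-helix inhibitor known as a target of BMP signalling in endothelium, with an RMS difference of 0.132. ID1 had 120, 149 and 38.9 normalized counts in QHMM and 90.7, 93.8 and 124 in STH, which repeats the low value of QHMM replicate 3. AARS2 followed with 0.176. For HES1 the closest were GRASP and PTGER4, with 0.270 and 0.298, and PTGER4, a prostaglandin E receptor, had 422, 222 and 67.6 in the QHMM and 140, 116 and 212 in the STH libraries. For JAG2 they were HOXD8 and APOD, with 0.145 and 0.158. The points share library and depth, and likeness over 6 libraries is a description only.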

How the data were processed

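Per the labels and the study's methods, poly(A) RNA was sequenced on an Ion Proton instrument, reads were filtered and mapped to the sheep genome (Oar_v3.1), and unique mapped reads were counted on genes. The aligner, counting program, strand setting and annotation release are not given in the sources used here. The authors deposited raw read counts for 23144 genes and RPKM values, which equal the counts divided by a length per gene and the total of the library (relative spread at most 5.73e-06); 25 rows of the RPKM table could not be joined by name. No 2 libraries were identical.

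Counts were tested with edgeR 4.0.16 in R 4.3.3 (filterByExpr, TMM, glmQLFit and glmQLFTest, breed as the only term) over all genes, with Benjamini-Hochberg adjustment and the study's thresholds (FDR below 0.05, absolute log2 fold change above 0.585). The study's program, EBSeq, was not run. The SE was derived from the log2 fold change and the F statistic. Normalized counts are CPM scaled to the median library total of 13044142.5 reads. DESeq2 1.42.0 and limma 3.58.1 (limma-trend on log2(RPKM + 1) and log2(RPKM + 0.1), 3 or more libraries at 1 RPKM or above) were alternatives, together with upper-quartile normalization, other filters, robust dispersions, a replicate block, an FDR of 0.01 and leaving out each library. Scripts were tested on simulated counts. At the same thresholds edgeR called 16.3% of the simulated 2-fold changes and 85.6% of the 4-fold changes, with 3.88% of its calls false. DESeq2 called 32.7% and 90.7%, with 11.1% of its calls false. Most changes of 2-fold would thus not be called by either program, and a gene that was not called is not shown to be unchanged. Plots were drawn with matplotlib 3.10.9.

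Named genes were all members, a fixed set of pathway genes (of which HES6 had no row) and any called, the most abundant marker of each list and any called, and the 2 genes closest in profile to the 3 most variable members. Others are marked where they occur, and 1 gene of the set is not reported here. The members and lists were chosen with earlier results of these data known. Pathway and marker symbols without a row of their own were taken from LOC rows with the same RefSeq gene ID, and for JAG2 and NRARP from the name match in the table, a step chosen after seeing the data. No sequences are printed. The replicates are separate animals. No genome positions are given, since the annotation used here is of another build.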

Additional observations from a re-analysis of the deposited data

How the results depend on the processing

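With edgeR, DESeq2 or limma, 0 of the 8 members were called in every fit with all 6 libraries, and 0 to 1 with 1 library left out, the 1 being HES1 without QHMM replicate 3. Adding the LOC genes of DLL1 and JAG2 (chosen after seeing the data) left 0 called. Over all genes, 432 calls became 975 with DESeq2, 806 without the filter on low counts, 41 at an FDR of 0.01, and 131 to 535 with 1 library left out. The share of calls higher in STH, 47.0%, was 61.3% and 61.9% with limma-trend on log2(RPKM + 1) and log2(RPKM + 0.1), where the median of all genes lay at 0.12 and 0.14 in place of 0.02. Of the other pathway genes, 0 became 3 with DESeq2 (DLK1, DTX4 and FURIN), 2 without the filter (DTX4 and FURIN), 1 with the replicate block (DLK1), and 0 to 2 with 1 library left out, the 2 (DLK1 and FURIN) being without STH replicate 1.

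Signs turned for genes close to 0. NOTCH1 moved to 0.0037 with the replicate block, to 0.10 and 0.12 on the 2 RPKM scales (-0.02 and -0.03 relative to the median of all genes), and to between -0.15 and 0.14 with 1 library left out. HEY1 moved to 0.0044 on log2(RPKM + 1), which is -0.11 relative to that median, and to between -0.40 and 0.081 with 1 library left out, and DLL4 to between -0.28 and 0.39. The cause was not tested. In the order by RPKM, 8 of 10 places were kept after division by the TMM factor, with JAG1 and NOTCH3 exchanged.

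Libraries with the same replicate number deviated together for number 1 (r = 0.218 across 12506 genes) and not for numbers 2 and 3 (-0.0309 and -0.120), and QHMM replicate 2 was closest to STH replicate 3 (0.271), so the numbers were not read as pairs. The replicate block gave 457 calls over all genes and 0 of the 8 members. Depth limits JAG2 and HEY1 most.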

Other observations

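The balance among the receptors was chosen for description after the values were seen, and no difference in it was tested. NOTCH1 made up 24.9%, 22.03% and 18.5% of the summed RPKM of NOTCH1, NOTCH2 and NOTCH3 in the QHMM animals, and 27.9%, 35.3% and 29.5% in STH. The breeds did not overlap in this 1 of 3 shares, where 24.7% of all genes tested did not overlap in their normalized counts, whereas those of NOTCH2 (23.4% to 36.5% in QHMM and 25.6% to 31.6% in STH) and NOTCH3 (38.6% to 54.6% and 39.2% to 44.6%) did. A share shows unequal change among the 3 receptors and not which of them changed.

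HES1 and DLL4 were low in the same QHMM library, but not to the same extent. The ratio of HES1 to DLL4, both in RPKM, was 3.43, 3.04 and 1.87 in the QHMM animals and 1.59, 1.70 and 1.54 in the STH animals, so that it was higher in every QHMM library, including replicate 3. For comparison, 24.7% of all genes tested did not overlap in their normalized counts. The other ratios formed overlapped between the breeds. HES1 to HEYL was 1.18 to 7.45 in QHMM and 3.998 to 5.18 in STH. HES1 to HEY1 was 6.38 to 28.03 and 8.59 to 22.2, and DLL4 to JAG1 was 0.920 to 2.59 and 1.75 to 4.19. The ratio of HEYL to NOTCH3 stayed between 0.816 and 1.30 in QHMM and between 0.822 and 1.12 in STH. These ratios were also picked after the values were seen and were not tested.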
